A study of Rattus norvegicus with 6 samples.

Results

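The genes described here encode the nuclear subunits of the mitochondrial respiratory chain, complexes I to V. They were chosen by a rule on gene names, set with earlier results of these data known. Every array feature (probe set) annotated with exactly 1 gene symbol of the Ndufa, Ndufb, Ndufc, Ndufs, Ndufv, Sdha to Sdhd, Uqcr, Cox4 to Cox8 or Atp5 families was taken. Each gene was represented by its probe set with the highest mean over the 6 arrays. This gave 78 genes from 87 probe sets, of 14217 genes measured in all. Assigned by the family of the name, there were 34 genes of complex I, 4 of complex II, 7 of complex III, 17 of complex IV and 16 of complex V. Ndufa4 was counted in complex I by its name although it can be assigned to complex IV. The 17 of complex IV include the pseudogene Cox6c-ps1. No filter on low values was applied, so all 78 were measured in every rat.

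RNA was taken from whole blood of male Sprague-Dawley rats 8 weeks old, with 1 array per rat. In the 3 MCAO rats (middle cerebral artery occlusion, a stroke model), a coated thread closed the origin of the left middle cerebral artery for 90 min and was then withdrawn, and blood was drawn from the heart 24 h after reperfusion. The 3 sham rats had the same operation and sampling with an uncoated thread that left the artery open. The MCAO rats used for the arrays had been selected for a narrow range of infarct size, so they do not show the full spread of the model. The comparison asks how subunit transcripts in blood differ after cerebral infarction from those after the operation alone.

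The respiratory chain lies in the inner mitochondrial membrane. Complex I takes electrons from NADH and complex II from succinate; both pass them through ubiquinone to complex III, and cytochrome c carries them on to complex IV, which reduces oxygen. Complexes I, III and IV pump protons, and complex V, the ATP synthase, lets them flow back to make ATP. Complex II is also an enzyme of the citric acid cycle and is encoded wholly in the nucleus, whereas the other complexes combine nuclear subunits with a few encoded by mitochondrial DNA. In blood, white cells, platelets and immature red cells hold mitochondria, and mature red cells do not.

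The nuclear subunit genes are scattered: the 78 members lay on 20 chromosomes of the rat build GRCr8. Promoters of such genes are known for sites of the activators NRF1, GABPA (an ETS factor) and YY1, so the letters of those sites are shown before the values. The RefSeq promoter table (GRCr8, 250 bases before to 50 bases after the start) held 70 of the 78 members and 11700 of the measured genes. On either strand, the NRF1 letters GCATGCGC occurred in 7 of the 70 member promoters and in 4.29% of the 11700. The ETS letters CCGGAAG occurred in 20 (28.6%) and in 15.1%. The YY1 letters AAGATGGCG occurred in 10 (14.3%) and in 3.14%. The ETS and YY1 strings can share the bases AAG and the NRF1 string can overlap its own reverse, but no matches of different strings overlapped in a member promoter. At least 1 of them was found in 29 of the 70 members (41.4%) and in 20.6% of the 11700 genes. A match of letters is a description and not a measured binding site.

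In 9 of the 10 members with the YY1 letters, these lay across the start or within 45 bases after it, and in several members they were followed by further G and C bases. The YY1 letters contain ATG, the triplet of a start codon, and whether the matches lie in coding sequence was not examined. They are shown on the gene's strand, in GRCr8, with the YY1 letters in capitals, for subunits of complexes I, III and V:
Ndufs4 (chr2:47794892-47794920, - strand): tgcccacaggAAGATGGCGgcggtctcaa
Ndufs6 (chr1:31797413-31797441, + strand): ggtcgtcggcAAGATGGCGgcggcgctga
Ndufs7 (chr7:10110476-10110504, - strand): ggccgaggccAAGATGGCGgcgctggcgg
Ndufa9 (chr4:161374142-161374170, - strand): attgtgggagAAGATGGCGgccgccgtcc
Uqcrc1 (chr8:118468212-118468240, + strand): cggaagttagAAGATGGCGgcgtccgcag
Atp5mf (chr12:14535461-14535484, + strand): acaggacttcAAGATGGCGtctat

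Sites with the ETS and NRF1 letters are shown for members whose values are given further on, with those letters in capitals. A run CTTCCGG is the ETS string read on the opposite strand, and GCGCATGC is the NRF1 string so read:
Sdhd, ETS (chr8:59850673-59850699, - strand): cacctcctgcCTTCCGGttcactcttg
Sdhb, ETS (chr5:158547816-158547842, + strand): actcgggataCCGGAAGctgccttcca
Sdhb, NRF1 (chr5:158547757-158547784, + strand): agcccagtggGCATGCGCcctactggcc
Uqcrc2, ETS (chr1:184599113-184599139, + strand): ctcatccggcCTTCCGGagcagtagag
Uqcrc1, NRF1 (chr8:118468174-118468201, + strand): actccaccctGCGCATGCgtagcgcggc
Cox8a, ETS (chr1:213833664-213833690, - strand): ttccgaaataCTTCCGGgctgaggcgt

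Atp5f1b was the single member called when the study's test, Rank Products, was run anew on the deposited values. The 150 bases before its start held none of the 3 strings, which says only that these letters are not in this window:
Atp5f1b (chr7:1099908-1100057, + strand): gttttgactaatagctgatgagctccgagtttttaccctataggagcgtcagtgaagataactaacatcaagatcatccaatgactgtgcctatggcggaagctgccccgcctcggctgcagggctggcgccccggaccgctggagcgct

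The array values are on a log2 scale, and their normalization (DFW) contracts differences between arrays strongly and unequally between genes. Differences are therefore given in millionths of a log2 unit (µlog2), as deviations from the gene's mean over the 6 rats. The SD over the 6 rats ran from 0.0836 µlog2 (Cox7a1) to 1468 µlog2 (Atp5f1b) among the members, with a median of 64.2 µlog2 against 3.32 µlog2 over all genes. The largest difference between the groups, in Atp5f1b, corresponded to 0.121% of its signal on these values, so the sizes rank genes on this scale and are not fold changes of mRNA. In whole blood, fewer cells of a type and less RNA per cell cannot be told apart.

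Most subunit transcripts had a lower mean in the MCAO rats, but in only 15 of the 78 members did the difference between the group means exceed the larger SD of both groups. The share of all genes that passes this mark was not counted. The mean was lower in 68 of the 78 members (87.2%) and in 50.2% of all genes. The members were brighter than most genes, 70 of them lying above the median level of all genes. In that brighter part, 65 of 70 members (92.9%) and 56.4% of all genes had the lower mean in MCAO. The highest MCAO value was under the lowest sham value in 6 members (7.69%) and in 4.11% of all genes. In no member was the lowest MCAO value over the highest sham value, against 4.43% of all genes. Without sham rat 3 the mean was lower in 58 of the 78 (49.0% of all genes) and the MCAO values lay under the sham values in 6 (6.75% of all genes). Without sham rat 1 the counts were 71 (50.2%) and 26 (12.5%). These counts rest on the deposited scaling: the mean was lower in 41 of the 78 both after quantile normalization, beside 39.6% of all genes, and after centring of each array on its median, beside 11.1%. Centring moves the MCAO minus sham difference of every gene by the same amount, so small falls turn in sign whatever the gene.

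Rank Products, the test of the study, was run anew on the deposited values (false discovery rate, FDR, under 0.05). By it 1 member was lower in MCAO, which is 1.28% of the members beside 0.935% of all genes. None was higher, beside 0.134% of all genes. With limma, 3 members were lower at an unadjusted p under 0.05 (3.85% beside 1.99% of all genes) and none was higher (beside 1.87%). After adjustment over all probe sets limma called 0 members and 0.0% of all genes. The shares of called members are thus near those of all genes and say nothing particular about the subunits.

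**Figure D1:**
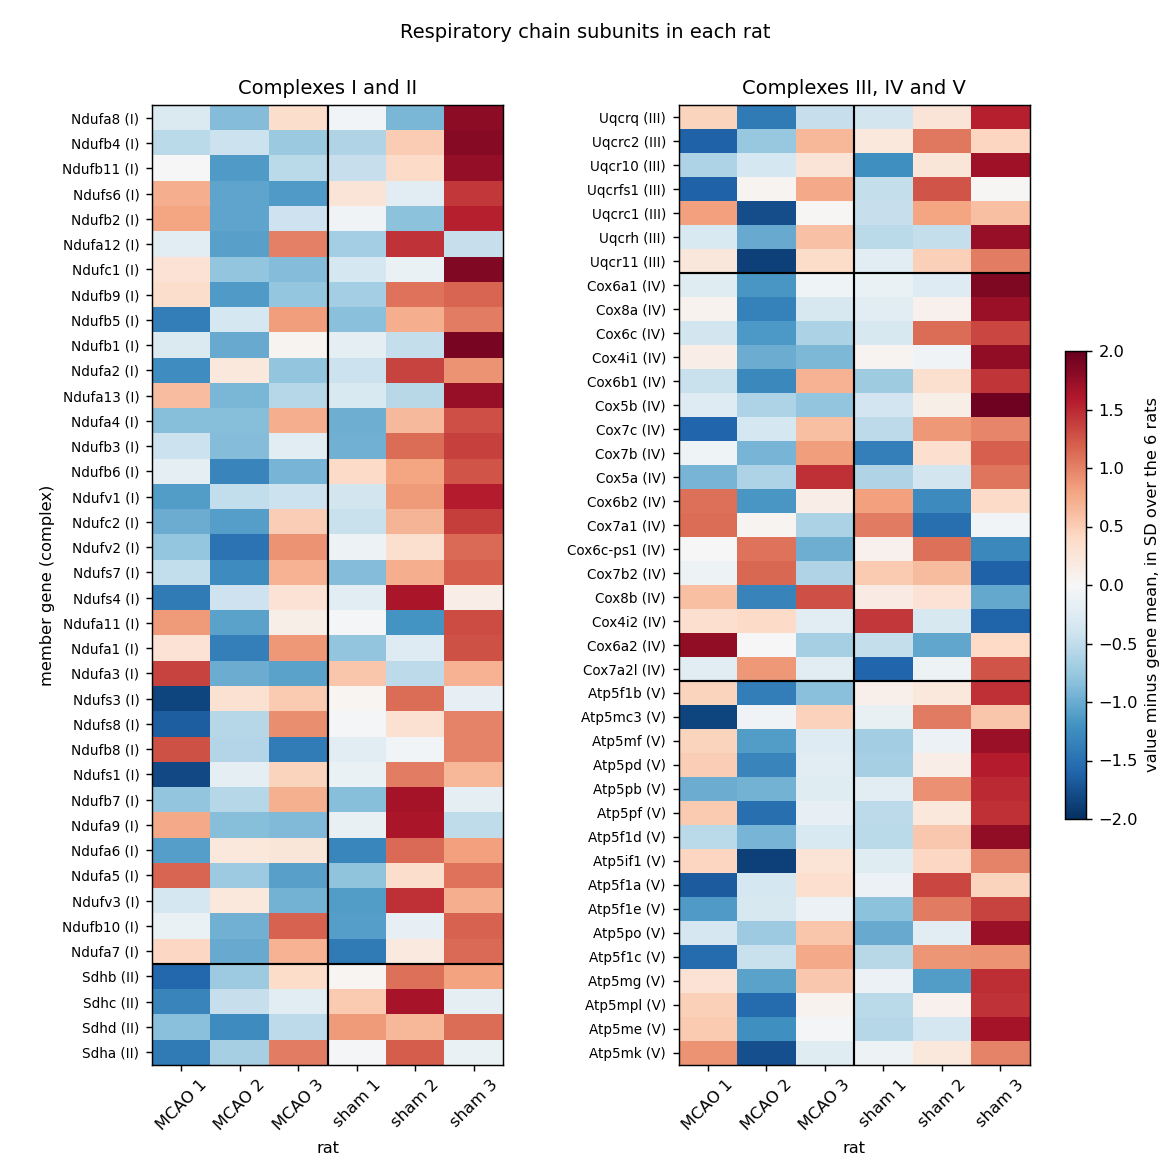
Value of each of the 78 subunit genes in each rat, as the deviation from the gene's mean in SD over the 6 rats (colour; red is higher, blue lower), with the genes of each complex ordered by their MCAO minus sham difference in µlog2. Sham rat 3 is the highest rat in 50 of the genes and MCAO rat 2 the lowest in 31, while sham rat 3 is highest in none of the 6 tissue isoforms of complex IV.

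The members also shared an order of single rats. Sham rat 3 was the highest of the 6 rats in 50 of the 78 members (64.1%) and in 18.6% of all genes. MCAO rat 2 was the lowest in 31 members (39.7%) and in 13.5% of all genes. Both held together in 28 members (35.9%) and in 4.4% of all genes, or, above the median level, in 40.0% of 70 members and 6.5% of 7108 genes. Sham rat 1 was the lowest rat in 11 members (14.1%, beside 9.95% of all genes) and the highest in 1 (1.28%, beside 9.9%). MCAO rat 3 was lowest in 8 members (10.3%, beside 18.6% of all genes) and highest in 2 (2.56%, beside 16.7%).

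Another order of the rats occurred in fewer members. In 11 of them (14.1%) MCAO rat 1 was the lowest rat and sham rat 2 the highest, as in 7.77% of all genes. These were Ndufs1, Ndufs3, Ndufs4 and Ndufa2 of complex I, Sdha, Sdhb and Sdhc of complex II, Uqcrc2 and Uqcrfs1 of complex III, and Atp5f1a and Atp5mc3 of complex V. No member of complex IV showed it. By complex, sham rat 3 was highest in 14 of 16 genes of complex V, 22 of 34 of complex I, 4 of 7 of complex III, 9 of 17 of complex IV and 1 of 4 of complex II.

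Per rat, each complex was summarised as the median over its genes of the deviation from the gene mean, with no test because the genes are not replicates. Complex V had the largest difference of the per-rat medians, at -123 µlog2 between the means of the groups, with an SD of 71.1 over the MCAO rats and 147 over the sham rats (n = 3 each). Complex III followed at -37.8 µlog2 (SD 35.1 and 35.4), then complex IV at -31.9 (SD 21.5 and 67.2), complex II at -23.6 (SD 13.0 and 12.4) and complex I at -18.0 (SD 13.9 and 19.9). The difference exceeded the larger of both SDs in complexes II and III and not in complexes I, IV and V. The order changed with the scale: with each gene divided by its own SD over the rats, complex II came first at -1.25 SD units and the other complexes lay between -0.62 (IV) and -0.81 (I).

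In the separate rats, given here and below in the order of rats 1, 2 and 3 of each group, the complex V medians were 8.75, -119 and -1.33 µlog2 in the MCAO rats and -44.5, 56.4 and 245.5 in the sham rats. MCAO rat 2 and sham rat 3 thus stood at the ends, and MCAO rat 1 lay above sham rat 1. The complex II medians were -23.6, -12.2 and 2.35 µlog2 in the MCAO rats and 5.53, 26.8 and 5.08 in the sham rats, so that the groups did not overlap on the deposited scale. After centring each array on its median, the difference of complex II turned to 6.17 µlog2 and that of complex I to 11.8, and after quantile normalization that of complex IV turned to 12.8. In complexes I, III and IV, sham rat 1 lay below MCAO rat 3 and the groups overlapped.

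Of the control transcripts of the array, beta-actin had the same rats at its ends as complex V. Its 3 probe sets, from the 3′ end, middle and 5′ end of the transcript, were each lowest in MCAO rat 2 and highest in sham rat 3, with middle values of -92.9 µlog2, -373 and 162 in the MCAO rats and -53.8, 109 and 249 in the sham rats. GAPDH did not follow this order: its probe sets were lowest in MCAO rat 1 and about as high in MCAO rat 3 as in sham rat 3, with 3′ values of 1672 and 1694 µlog2. The 3′ minus 5′ value of beta-actin, as a deviation from its mean, was highest in MCAO rat 2 (212 µlog2) and lowest in sham rat 3 (-105). For GAPDH it was lowest in MCAO rat 1 (-385 µlog2) and highest in sham rat 3 (388). The part of input RNA or RNA quality in the subunit values was not tested.

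**Figure D2:**
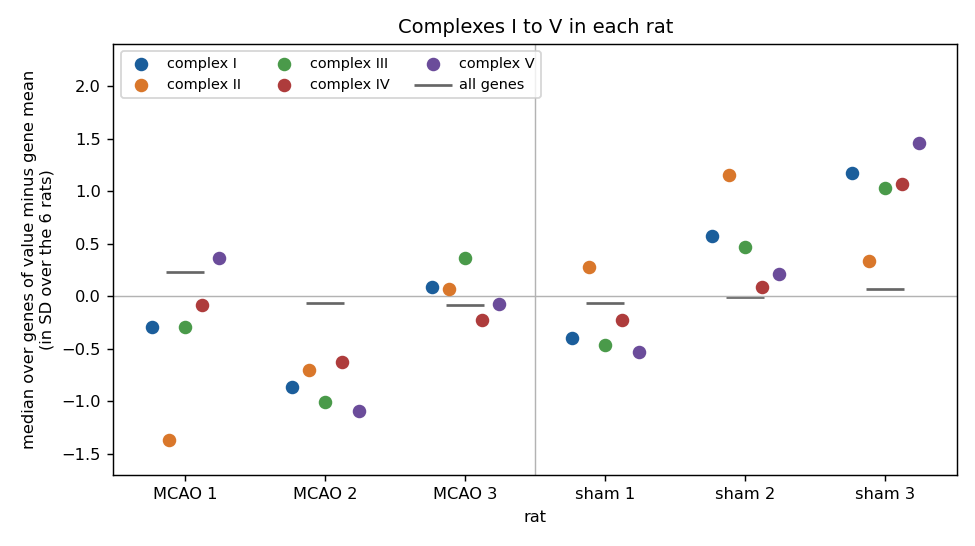
Median over the genes of each complex of the value minus the gene mean, in SD over the 6 rats, for each rat (coloured points; grey bars are all genes). All 5 complexes are below 0 in MCAO rat 2 and above 0 in sham rats 2 and 3, complex II is lowest in MCAO rat 1 (-1.37), and complex V is highest in sham rat 3 (1.46).

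Complex I is the largest complex, and its core subunits carry the flavin and the iron-sulfur clusters. The 6 core subunits measured (Ndufs1, Ndufs3, Ndufs7, Ndufs8, Ndufv1 and Ndufv2) all had the lower mean in MCAO, with differences of -4.09 to -26.7 µlog2. Ndufv1, the subunit that binds NADH and the flavin, had -22.0, -9.67 and -8.35 µlog2 in the MCAO rats and -7.25, 16.7 and 30.6 in the sham rats. The groups just failed to overlap, and the difference was -26.7 ± 11.9 µlog2 (SE; unadjusted limma p = 0.0681, exact permutation p = 0.1, the smallest that 3 rats against 3 can give). After centring each array on its median the difference turned to 3.10 µlog2. Ndufs1, which holds iron-sulfur clusters, had -7.11, -0.754 and 1.73 µlog2 in the MCAO rats and -0.549, 4.06 and 2.63 in the sham rats, and MCAO rat 3 lay among the sham rats.

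Among the other members counted in complex I, Ndufa4 included, 26 of 28 had the lower mean. Ndufb6, a subunit of the membrane arm, had -3.65, -25.7 and -17.9 µlog2 in the MCAO rats and 7.46, 15.4 and 24.3 in the sham rats. The groups did not overlap, with a difference of -31.5 ± 8.08 µlog2 (SE; unadjusted limma p = 0.0112, adjusted p = 1.0, exact permutation p = 0.1). After centring each array on its median it was -1.68 µlog2 and no longer under that unadjusted threshold. The largest differences of the complex were in Ndufa8, Ndufb4 and Ndufb11, at -691 ± 1112.5, -452 ± 279 and -332 ± 215 µlog2 (SE), and none of these passed a test. Ndufa8 rested on sham rat 3, at 2282 µlog2, while MCAO rat 2 and sham rat 2 were nearly equal at -1103.5 and -1170.5, and without sham rat 3 its difference was 277. The 2 members with the higher mean, Ndufa7 and Ndufb10, differed by 5.27 and 0.81 µlog2, less than their SDs.

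Complex II has 4 subunits: Sdha holds the flavin, Sdhb the iron-sulfur clusters, and Sdhc and Sdhd anchor the complex in the membrane. All 4 had the lower mean in MCAO. Sdhd had -8.59, -12.9 and -5.41 µlog2 in the MCAO rats and 8.69, 6.73 and 11.4 in the sham rats. Its difference of -17.9 ± 2.55 µlog2 (SE) was the largest among all members relative to its error (unadjusted limma p = 0.00108, adjusted p = 1.0, exact permutation p = 0.1). The dimmer probe set of Sdhd differed in the same direction, by -93.4 ± 162 µlog2, with MCAO rat 3 the highest of all rats. Rescaling turned the sign of the representing probe set: the difference was 1161 µlog2 after quantile normalization and 11.9 µlog2 after centring each array on its median. The turn after centring is the shift that all genes share and is not particular to Sdhd.

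Sdhc had -33.3, -11.5 and -5.64 µlog2 in the MCAO rats and 13.1, 41.7 and -4.4 in the sham rats. The groups did not overlap, though MCAO rat 3 and sham rat 3 were close, and the difference was -33.6 ± 15.9 µlog2 (SE; unadjusted limma p = 0.0796, exact permutation p = 0.1), and -3.84 µlog2 after centring. Sdhb had -101, -47.2 and 23.7 µlog2 in the MCAO rats and 2.38, 70.9 and 51.6 in the sham rats, and MCAO rat 3 lay above sham rat 1. In Sdha the MCAO rats had -13.9, -6.54 and 10.1 µlog2 and the sham rats -0.196, 11.8 and -1.28, which overlapped.

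Complex III was lower in mean in all 7 of its members, and in none did the groups separate. Uqcrq, a small subunit close to cytochrome b, had 209, -670.5 and -217 µlog2 in the MCAO rats and -178, 120 and 736 in the sham rats, a difference of -452 ± 370 µlog2 (SE). MCAO rat 1 was the second highest of the 6. The core protein Uqcrc2 had -179, -83.9 and 73.8 µlog2 in the MCAO rats and 23.5, 118 and 48.3 in the sham rats, a difference of -126 ± 79.0 µlog2 (SE), while a dimmer probe set of the gene differed by 0.272 ± 1.64 µlog2. Uqcrfs1, the Rieske iron-sulfur protein that passes electrons on to cytochrome c1, differed by -36.6 ± 59.4 µlog2 and Uqcrc1, the other core protein, by -23.9 ± 33.0.

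Complex IV was split by isoform. Several of its subunits occur in a form that most cells make and in a form limited to heart and skeletal muscle, lung or testis. The 9 widely expressed subunits (Cox4i1, Cox5a, Cox5b, Cox6a1, Cox6b1, Cox6c, Cox7b, Cox7c and Cox8a) all had the lower mean in MCAO, with a median difference of -166 µlog2. The 6 tissue isoforms (Cox4i2, Cox6a2, Cox6b2, Cox7a1, Cox7b2 and Cox8b) all had a slightly higher mean, with a median difference of 0.309 µlog2, and none of these differences exceeded its error. Levels of the tissue isoforms were 5.38 to 5.82 on the log2 scale, close to the median of all genes at 5.71, whereas those of the widely expressed forms were 5.72 to 9.91. The 9 heart muscle markers measured, such as Myh6, lay at 5.31 to 5.89, so that no muscle marker was bright in this blood drawn from the heart. Probe sets bind unequally, and these levels are not amounts of mRNA.

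Cox6c, a widely expressed subunit, had -132, -414 and -227 µlog2 in the MCAO rats and -117, 406 and 485 in the sham rats. Sham rat 1 lay just above MCAO rat 1, so the groups did not overlap, and the difference was -515 ± 206 µlog2 (SE; unadjusted limma p = 0.0501, Rank Products FDR 0.0741, exact permutation p = 0.1). Its processed pseudogene Cox6c-ps1, read by another probe set, differed by 0.056 ± 0.835 µlog2. Cox6a1 had the largest difference of complex IV, at -1200 ± 928 µlog2 (SE), and rested on sham rat 3 at 2265 µlog2, since sham rats 1 and 2 at -153 and -313 lay among the MCAO rats at -300.1, -1404 and -94.9. Cox8a, at -636 ± 443 µlog2, and Cox4i1, the widely expressed form of subunit 4, at -171 ± 101 µlog2, were likewise highest in sham rat 3. Cox7a2l, which joins complexes III and IV into supercomplexes rather than being a fixed subunit, had a higher mean by 21.1 ± 66.9 µlog2.

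**Figure D3:**
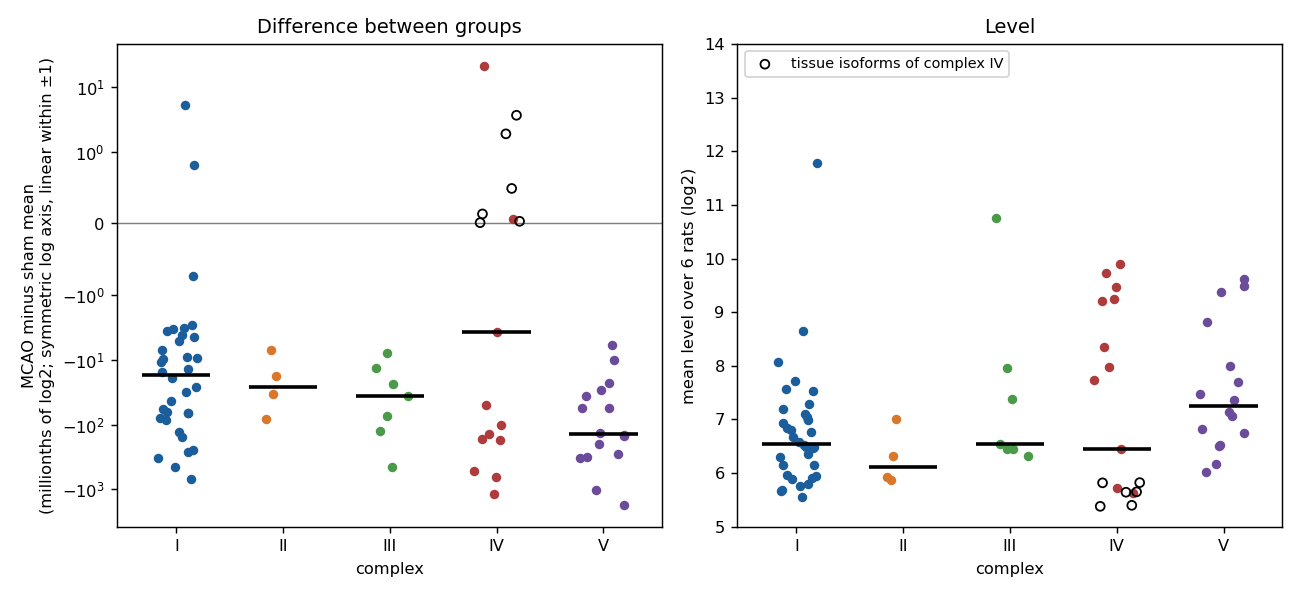
Left, MCAO minus sham difference of each subunit gene in µlog2 on a symmetric log axis; right, mean level over the 6 rats on the log2 scale; bars are medians of a complex and open circles the tissue isoforms of complex IV. Complexes II, III and V lie wholly below 0, while the 6 tissue isoforms lie at or just above 0 and at levels of 5.38 to 5.82.

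Complex V, the ATP synthase, joins a catalytic F1 head to a membrane part by stalks, and all 16 of its members had the lower mean in MCAO. Atp5f1b, the catalytic beta subunit of F1, was the member that fell by Rank Products. It had 646, -2032 and -1227 µlog2 in the MCAO rats and 158, 307 and 2147 in the sham rats. MCAO rat 1 lay above sham rats 1 and 2, so the groups overlapped, and the difference was -1742 ± 1019 µlog2 (SE; Rank Products FDR 0.0493, unadjusted limma p = 0.135, exact permutation p = 0.3). The call is at the edge of the threshold: in 5 further runs of the permutations its FDR was 0.0454 to 0.0508, with 4 of them under the threshold. It was also lost in paired Rank Products, which called Atp5mc3 and Cox6a1 instead, with rank sums, which called Cox6c instead, and when any single rat other than MCAO rat 1 was left out, and Rank Products ranks the differences themselves, while the spread of Atp5f1b over the rats ranked 247 of 14217 genes.

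Of the other F1 subunits, Atp5f1a, the alpha subunit, had -202, -42.2 and 40.7 µlog2 in the MCAO rats and -14.4, 163 and 54.9 in the sham rats, a difference of -136 ± 88.1 µlog2 (SE). It followed MCAO rat 1 and sham rat 2, whereas Atp5f1b followed MCAO rat 2 and sham rat 3, although both proteins form the same ring of the enzyme. Atp5f1d, the delta subunit of the central stalk, differed by -153 ± 89.3 µlog2. Atp5mc3, which encodes the c subunit of the proton-driven ring, had a difference of -1033 ± 833 µlog2, with MCAO rat 1 at -1974 and sham rat 2 at 1116.

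Atp5pb, the b subunit of the peripheral stalk, had -195, -186 and -46.6 µlog2 in the MCAO rats and -45.0, 179 and 293 in the sham rats. MCAO rat 3 and sham rat 1 were nearly equal, and with that the groups did not overlap; the difference was -285 ± 110 µlog2 (SE; unadjusted limma p = 0.0452, adjusted p = 1.0, exact permutation p = 0.1). Atp5mf, a small membrane subunit, differed by -325 ± 455 µlog2, and by 52.8 µlog2 without sham rat 3. Atp5if1, the inhibitor that stops the enzyme from running backwards, differed by -146 ± 154 µlog2, and its 2 dimmer probe sets had differences of 2.02 and 1.15 µlog2.

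**Figure D4:**
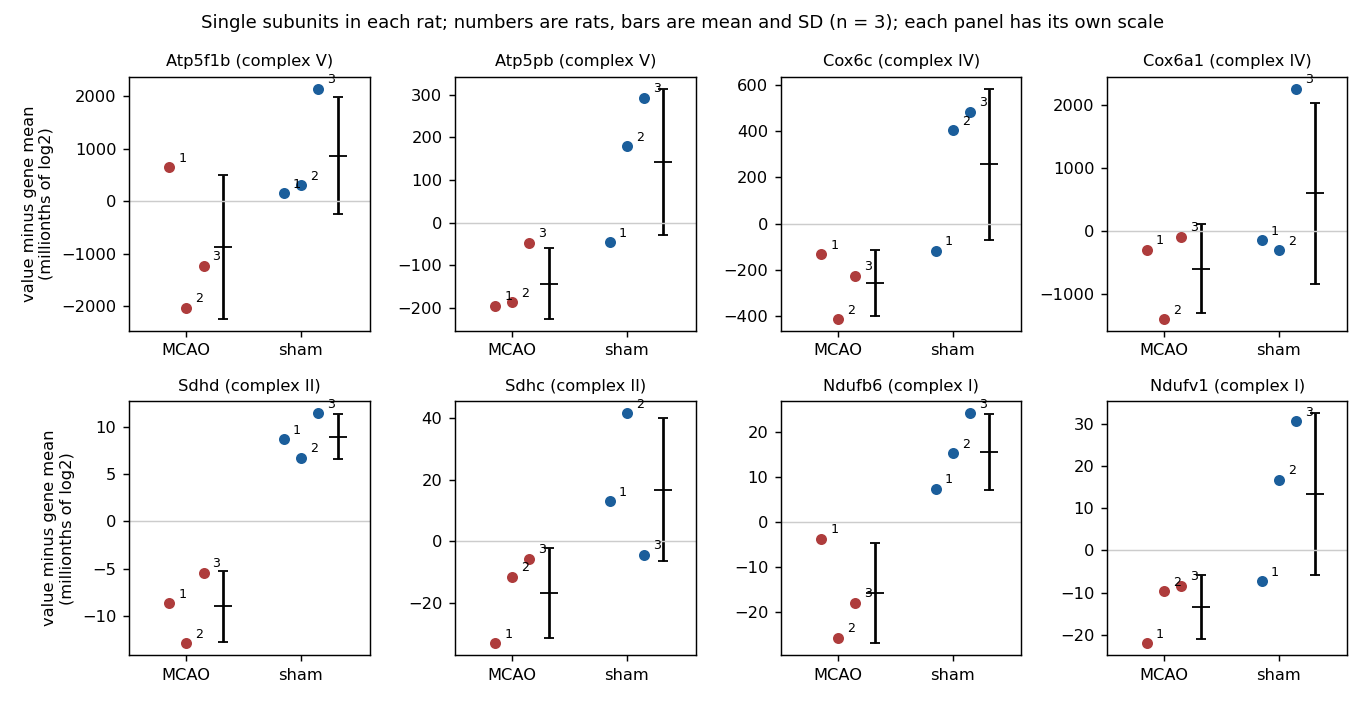
Values of 8 subunit genes in each rat as deviations from the gene mean in µlog2, with the rat number beside each point and the mean and SD of the group (n = 3) as bars; each panel has its own scale. In 6 of them (Atp5pb, Cox6c, Sdhd, Sdhc, Ndufb6 and Ndufv1) no MCAO rat lies above a sham rat, while Atp5f1b and Cox6a1 overlap.

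Genes that work with the chain were compared from lists drawn up for the purpose, and of their 218 genes in 8 lists 0 were called by Rank Products, beside 0.935% of all genes lower and 0.134% higher. limma gave 4 lower (1.83%, beside 1.99% of all genes) and 1 higher (0.459%, beside 1.87%) at an unadjusted p under 0.05. All 16 measured genes of the citric acid cycle and pyruvate dehydrogenase had the lower mean in MCAO, with a median difference of -18.6 µlog2, and 11 of them were lowest in MCAO rat 1. Ogdh, the E1 subunit of 2-oxoglutarate dehydrogenase, had -35.4, -353 and -198 µlog2 in the MCAO rats and 68.9, 210 and 307 in the sham rats, and the groups did not overlap (-391 ± 115 µlog2, Rank Products FDR 0.0735). COX1 and COX2, the complex IV subunits of mitochondrial DNA, also had lower means, by -37.5 ± 24.4 and -94.4 ± 46.0 µlog2. Of the mitochondrial ribosomal proteins 57 of 73 had the lower mean, of the import proteins and chaperones 21 of 26, and of the regulators of mitochondrial genes 14 of 20, including Tfam, the packaging factor of mitochondrial DNA (-174 ± 87.1 µlog2).

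The assembly factors, which build the complexes without staying in them, had the lower mean in 29 of 49, a share of 59.2%. Chain genes outside the name rule, such as cytochrome c1, the coenzyme Q enzymes and the carriers, did so in 13 of 23, and mitophagy genes in 4 of 9. Within the carriers, Slc25a5, which exchanges ADP for ATP, differed by -1087 ± 988.5 µlog2 and Slc25a3, the phosphate carrier, by -376 ± 292. Slc25a4 had a higher mean in MCAO, by 9.63 ± 12.9 µlog2. The outer membrane channels Vdac2 and Vdac3 differed by -656 ± 843 and -522 ± 1042 µlog2, and Vdac1 had a higher mean by 5.87 ± 33.3.

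Some lists of blood cell markers had their lowest and highest median deviations in the same rats as the subunits, and others did not. Of the erythroid markers, 10 of 11 had the lower mean in MCAO with 0 called by Rank Products and 0 at an unadjusted limma p under 0.05. Their median deviation was lowest in MCAO rat 2 (-161 µlog2) and highest in sham rat 3 (152), the rats at the ends of complex V. Marker by marker, sham rat 3 was highest in 7 of the 11. MCAO rat 2 was lowest in only 3, as many as MCAO rat 1 and as sham rat 1. The brightest erythroid marker, Hbb, lay at 14.21, and the summed log2 level of the list was 107.8382 to 107.8437 in MCAO and 107.8403 to 107.8487 in sham rats. Of the B cell markers, 8 of 9 had the lower mean and 3 fell by Rank Products, beside 0.935% of all genes called lower. Their sums were 57.769 to 57.7814 in MCAO and 57.7821 to 57.7924 in sham rats, which did not overlap. These sums rested mostly on Ms4a1 and Fcmr, which differed by -5086 and -4847 µlog2. Blk, Bank1, Ebf1 and Fcrla differed by -17.4 to 0.593 µlog2. In 6 of the 9 every MCAO value lay under every sham value, as in 4.11% of all genes.

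Of the T cell markers, 13 of 14 had the lower mean and 2 (Tcf7 and Cd3g) were called lower by Rank Products. For the NK and cytotoxic cell markers the counts were 11 of 11 and 2 (Ccl5 and Prf1), beside 0.935% of all genes called lower. In each of these called markers the groups overlapped. The differences were -6034 ± 4247 µlog2 (SE) for Tcf7, -3120 ± 2201 for Cd3g, -7570 ± 10090 for Ccl5 and -4888 ± 4362 for Prf1. Of the called B and T cell markers, Cr2 and Cd3g had already been reported by the study itself from these arrays. The T cell sums were 87.7488 to 87.7746 in MCAO and 87.7682 to 87.7857 in sham rats, and the NK sums 67.326 to 67.3784 and 67.3549 to 67.3812. Median deviations were lowest in MCAO rat 1 for the B, T and NK lists (-38.9, -47.3 and -181 µlog2), as for complex II and the citric acid cycle, and highest in sham rat 2 for the NK list (211). Platelet markers had the lower mean in 1 of 10, neutrophil markers in 2 of 9 and monocyte markers in 5 of 10. By Rank Products the neutrophil markers Csf3r and Il1r2 were called higher and S100a9 was called lower although its mean was higher. In Csf3r the groups overlapped, with a difference of 13120 ± 19860 µlog2 (SE). MCAO rat 1 was its lowest rat at -21280 µlog2 and MCAO rat 3 its highest at 44950. In Il1r2 every MCAO value lay above every sham value (485 ± 230 µlog2). No platelet or monocyte marker was called. The shares of all genes called higher and lower were 0.134% and 0.935%. The median deviations of the platelet, neutrophil and monocyte lists were highest in MCAO rat 3 (576, 119 and 41.1 µlog2), which was the highest rat in 2 of the 78 subunit genes. The part of blood cell numbers in the subunit values was not tested.

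The letters of the promoters were set beside the values as a description. All 29 members with at least 1 of the 3 strings had the lower mean in MCAO, with a median difference of -23.9 µlog2, and so did 33 of the 41 without any, with a median of -35.6. The 8 exceptions were Ndufa7, Ndufb10, Cox7a2l and the 5 tissue isoforms of complex IV that have a promoter in the table.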

How the data were processed

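RNA of 6 rats (3 MCAO, 3 sham) was hybridised to the Rat Genome 230 2.0 array, 1 array per rat. The authors deposited log2 values, normalized and summarised per probe set with DFW in R 2.7.2; the base of the log is not stated with them and was taken from their range of 4.93 to 14.43. DFW shrinks differences unequally, and depth or background cannot be read from such values. Groups followed the sample labels. Of 31099 probe sets, 57 controls were left out. Rank Products (9 differences, 100 permutations, FDR under 0.05) was run over the other 31042 in Python 3.11.15 with numpy 2.4.6, as was limma 3.58.1 in R 4.3.3 with Benjamini-Hochberg adjustment; both were tested on simulated data. Exact permutation tests were two-sided. Symbols came from the array annotation: 20826 probe sets had 1 symbol, 436 several and 9837 none. All 78 members matched GRCr8 by gene ID. The members and all gene lists were chosen with earlier results of these data known. Named were the called member, in each complex the 3 largest differences and the 2 largest limma statistics, subunits by role, and the leading genes of other lists. No label pairs the rats or says that a number marks a batch. Alternatives were other scalings, filters, tests, probe sets and leaving out each rat.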

Additional observations from a re-analysis of the deposited data

How the results depend on the processing

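Atp5f1b, the member called lower by Rank Products, was not called in the brighter probe sets, after quantile normalization, at an FDR of 0.01, by limma after adjustment, or with each probe set divided by its range to the power of 0.75 (0 members in each; the last was chosen after seeing the data). Rank sums called Cox6c and not Atp5f1b. Leaving out 1 rat gave 0 to 5 members, beside 12 to 338 of the 31042 probe sets called lower. The 5 came without MCAO rat 1, where 254 of the probe sets were called lower, against 188 with all rats. Rats share only their number: the correlations of same-numbered rats' deviations were 0.215, 0.0399 and 0.0631. With the replicate number as a block, paired Rank Products called 2 members, Atp5mc3 and Cox6a1 and not Atp5f1b, beside 292 of the 31042 probe sets. With that block limma gave 5 lower at an unadjusted p under 0.05, against 3 without a block. That limma count was 1 after quantile normalization and 2 to 11 with 1 rat left out. Its share over all genes in these settings was not counted.

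All MCAO values lay under all sham values in 6 members, but in 1 after quantile normalization (0.682% of all genes), in 1 after centring (0.767%) and in 6 to 26 with 1 rat left out (6.75% to 12.5%). They lay above all sham values in 6 after centring (24.9% of all genes) and in 0 to 1 with 1 rat left out (7.15% to 13.2%). The mean was lower in 41 members after quantile normalization (higher in 26, equal in 11) and after centring (higher in 37), and in 58 to 71 with 1 rat left out. Differences of per-rat medians in µlog2 moved as follows. Quantile normalization gave -46.4 for complex I, -115 (III), -227 (V) and -52.5 (all), and turned complex IV to 12.8. Centring turned complex I to 11.8 and complex II to 6.17, and gave -8.02 (III), -2.13 (IV) and -2.41 (all). A mean in place of the median over genes gave -85.3 (I), -105 (III), -174 (IV), -284 (V) and -145 (all), and averaging all probe sets of a gene gave -44.6 (II). With 1 rat left out the ranges were -28.3 to -9.35 (I), -31.6 to -17.0 (II), -62.6 to -7.29 (III), -50.2 to -11.6 (IV), -177 to -42.8 (V) and -47.4 to -12.5 (all). Median levels moved to 6.49 (I), 6.46 (III) and 6.92 (V) with all probe sets averaged, and to 6.5343 (III) after quantile normalization.

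The sign turned without sham rat 3 for Ndufa8 (with 1 rat left out, -1449 to 277 µlog2), Atp5mf (-589 to 52.8) and Uqcr10 (-187 to 38.6), and for Ndufv1 (3.10) and Sdhd (11.9) after centring and for Sdhd (1161) after quantile normalization. The causes were not tested. Array medians differ by more than the spread of many members, so centring moves all of them together. Precision is limited by 3 arrays per group.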
